A study of Mus musculus with 6 samples.

Results

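The genes described here are 39 genes for extracellular matrix proteins, the enzymes that crosslink or cut them, and proteins of the hepatic stellate cell, out of 55385 genes in the count table of mouse liver. They were listed by name, by their role in the matrix or in stellate cells, and were matched to the table through their gene identifiers. Earlier results of these data were known when the list was chosen. All 39 were in the table and all 39 passed the filter on low counts. Liver poly(A) RNA was sequenced from 6 wild-type C57BL/6 male mice, 3 after a sham operation (replicates 1 to 3) and 3 after vertical sleeve gastrectomy (VSG, replicates 4 to 6), a bariatric operation that removes most of the stomach. Mice were fed a high-fat diet (HFD) from 6 to 8 weeks of age for 10 weeks, operated, and kept on HFD for 12 further weeks, so the sham livers carry the same diet as the VSG livers and there was no lean group among the samples analysed. Each library came from 1 liver, and whether the mice were fed or fasted when the liver was taken was not given in the sources used here. The comparison asked how the transcripts of the matrix and of the cells that make it differed between VSG and sham livers under a continued HFD.

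Hepatic stellate cells lie between hepatocytes and the sinusoidal endothelium and store vitamin A as retinyl esters, which the enzyme lecithin retinol acyltransferase (Lrat) makes. In injured liver they can lose this store and become contractile cells that secrete fibrillar collagens, a change driven by transforming growth factor beta and platelet-derived growth factor. The matrix they lay down is crosslinked by lysyl oxidases and cut by matrix metalloproteinases, which the Timp proteins inhibit.

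The libraries held 22804397 to 24191778 counts in genes. Levels are given as CPM, the counts of a gene scaled to a common library size of 1e+06 counts, after TMM scaling. A difference is the log2 fold change (log2FC) of VSG over sham with its standard error (SE), and a gene is said to have risen or fallen where the Benjamini-Hochberg adjusted p of edgeR's quasi-likelihood test over 14454 genes was under 0.05. By this rule 981 genes rose and 1137 fell, and with library totals in place of TMM scaling 486 rose and 1512 fell, with the median log2 fold change of all genes shifted from 0.03 to -0.11. With 3 livers a group, an exact permutation test of a single gene cannot give a p below 0.1, so none was used. Sham replicate 2 and VSG replicate 5 stood apart from their groups for these genes, and the summed markers of neutrophils were 150 to 1838 CPM in the VSG livers against 2.70 to 14.9 CPM in the sham livers.

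Most transcripts of the matrix and stellate cell genes had lower mean levels in the VSG livers, while fibronectin, the most abundant of them, was higher. Of the 39 genes, 7 fell and 1 rose, which is 20.5% of the list beside 14.7% of all genes tested. The share that fell was 17.9%, beside 7.87% of all genes, and the share that rose was 2.56%, beside 6.79%. The genes that fell encode 2 collagens (Col6a3 and Col14a1), the elastic fibre protein fibulin 5 (Fbln5), reelin (Reln), the proteoglycan biglycan (Bgn), the lysyl oxidase Loxl2 and the smooth muscle protein transgelin (Tagln). Fibronectin (Fn1) rose. The log2 fold change was negative for 34 of the 39 genes (87.2%, beside 47.6% of all genes), and its median was -0.68, beside 0.03 over all genes. The 3 VSG livers were all below the 3 sham livers for 13 genes (33.3%, beside 19.8% of all genes) and all above them for 2 (5.13%, beside 19.8%), together 38.5% of the list beside 39.7% of all genes. The mitochondrial share of counts also did not overlap between groups, at 5.79%, 6.58% and 5.59% in sham and 4.14%, 4.94% and 5.01% in VSG livers, and its part in these differences was not tested. In bulk liver RNA, fewer cells of a type and less RNA per cell cannot be told apart.

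**Figure D1:**
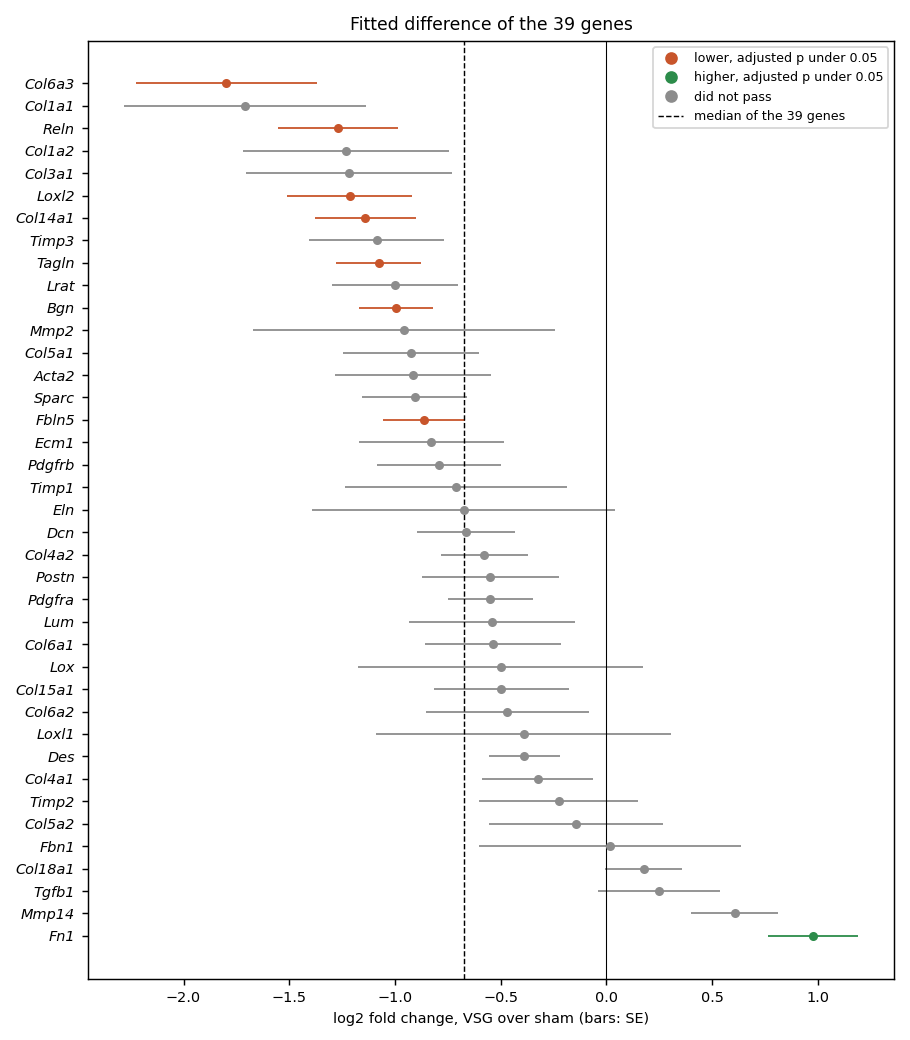
Fitted log2 fold change of VSG over sham (x axis) for each of the 39 genes (y axis), with bars of 1 SE, in order of size. The 7 genes that fell and the 1 that rose are coloured, and 34 of the 39 points lie left of 0, around a median of -0.68.

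The livers of each group were not alike. Sham replicate 2 had the lowest sham level for 31 of the 39 genes (79.5%, beside 36.5% of all genes tested), and for 12 of the 13 collagens. VSG replicate 5 had the highest VSG level for 31 of the 39 genes (79.5%, beside 36.0% of all genes), and for 10 of the 13 collagens. The median deviation of the 39 genes from the sham mean, in log2 CPM, was 0.20, -0.43 and 0.25 in sham replicates 1, 2 and 3, and -0.94, -0.26 and -1.05 in VSG replicates 4, 5 and 6. Of the 24 genes whose groups overlapped, 21 had a negative log2FC, and in 16 of these the lowest sham liver was replicate 2 and the highest VSG liver was replicate 5.

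Which genes passed the test depended on single livers. Without VSG replicate 5, 17 of the 39 genes passed, 15 lower and 2 higher, beside 18.4% of all genes, and their median was -1.07. Without sham replicate 2, 8 passed, all lower, beside 5.34% of all genes, and 3 of them were among the 8 of the full comparison. Without sham replicate 1, only Bgn passed (2.56% of the list, beside 8.19% of all genes), and without VSG replicate 4, 3 genes passed (Reln, Bgn and Lrat, 7.69% beside 7.32%). Without sham replicate 3 or without VSG replicate 6, 0 of the 39 genes passed edgeR's test, and 1.07% and 1.42% of all genes passed. In these comparisons 11 and 12 of the 39 had an unadjusted p under 0.05, a share not worked out over all genes. With all livers kept, 22 of the 39 (56.4%) had such a p, beside 33.9% of all genes. On all 6 livers DESeq2 called 17 of the 39 genes (43.6%, beside 22.7% of all genes) and limma-voom called 7 (17.9%, beside 12.9%).

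**Figure D2:**
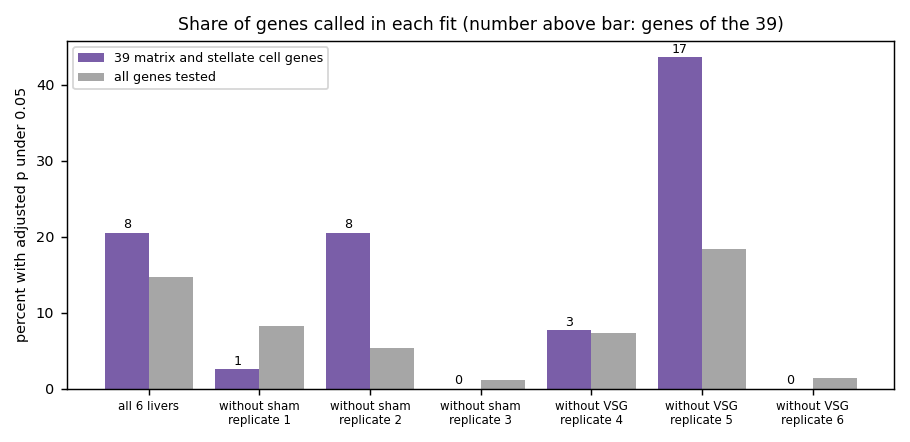
Share of genes with an adjusted p under 0.05 (y axis, percent) in the comparison of all 6 livers and in the 6 comparisons that leave out 1 liver (x axis), for the 39 genes and for all genes tested, with the number of the 39 above each bar. The number ran from 0 without sham replicate 3 or VSG replicate 6 to 17 without VSG replicate 5.

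**Figure D3:**
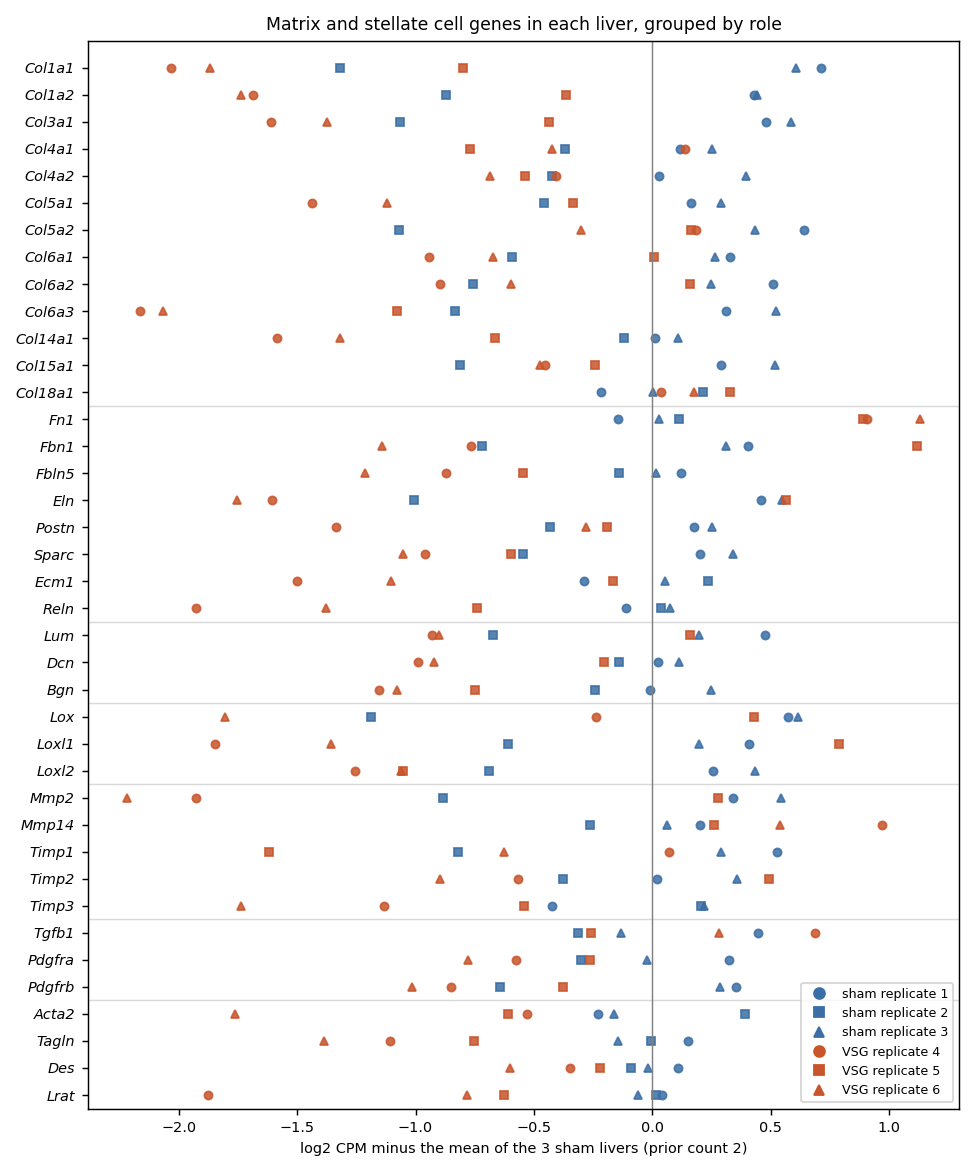
Level of each of the 39 genes (y axis, grouped by role) in each liver, as log2 CPM minus the mean of the 3 sham livers (x axis). Sham replicate 2 (blue squares) lies left of the other sham livers for most genes, and VSG replicate 5 (orange squares) lies right of the other VSG livers for 31 of the 39 genes and left of them for 5, such as Col4a1 and Mmp14.

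Collagens are the main fibres and networks of the matrix. Of the 13 in the list, 2 fell (15.4%, beside 7.87% of all genes), with a median log2FC of -0.58. Col6a3 encodes a chain of the beaded filaments of collagen VI. Its level was 60.5, 27.3 and 69.9 CPM in sham replicates 1, 2 and 3 and 10.8, 23.0 and 11.5 CPM in VSG replicates 4, 5 and 6. The groups did not overlap, though the lowest sham liver and the highest VSG liver lay close together. Col6a3 fell 3.47-fold (log2FC -1.80, SE 0.43, adjusted p 0.0384). Leaving out sham replicate 1 or 3 raised its adjusted p to 0.0861 and 0.137, and leaving out VSG replicate 4 or 6 raised it to 0.0897 and 0.131, so the call was lost in each case.

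Col14a1 encodes a collagen that binds to the surface of collagen fibrils. It stood at 167, 153 and 179 CPM in the sham livers and at 55.2, 105 and 66.4 CPM in the VSG livers. The sham livers lay within a narrow range and every VSG liver was well below it, replicate 5 the least. Col14a1 fell 2.20-fold (log2FC -1.14, SE 0.24, adjusted p 0.0284). The call held without VSG replicate 5 and was lost without any of the others, with adjusted p from 0.0505 (VSG replicate 4) through 0.0646 (sham replicate 1), 0.0652 (sham replicate 2) and 0.106 (VSG replicate 6) to 0.114 (sham replicate 3).

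The fibrillar collagens I and III, the bulk of scar collagen, had large differences that did not pass. Col1a1 was at 119.95, 29.2 and 112 CPM in sham replicates 1, 2 and 3 and at 17.8, 41.9 and 20.0 CPM in VSG replicates 4, 5 and 6 (log2FC -1.71, SE 0.57, adjusted p 0.089). Col1a2, the partner chain, was at 103, 41.8 and 104 CPM against 23.8, 59.5 and 22.9 CPM (log2FC -1.23, SE 0.49, adjusted p 0.130). Col3a1 was at 221, 75.6 and 238 CPM against 51.9, 117 and 61.0 CPM (log2FC -1.22, SE 0.49, adjusted p 0.132). For each of these 3 genes sham replicates 1 and 3 were above every VSG liver, while sham replicate 2 was below VSG replicate 5. Without sham replicate 2, Col1a1 passed (log2FC -2.12, adjusted p 0.0397), and without VSG replicate 5, Col1a2 passed (log2FC -1.86, adjusted p 0.0325). DESeq2 called all 3, with adjusted p of 0.00955, 0.0430 and 0.0430.

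The other collagens of the list had smaller values. Col5a1 and Col5a2, chains of the collagen V that nucleates fibrils, had log2FC values of -0.93 (adjusted p 0.0967) and -0.14 (adjusted p 0.824). Col4a1 and Col4a2, the basement membrane chains transcribed head to head from 1 locus, had values of -0.33 (adjusted p 0.411) and -0.58 (adjusted p 0.102). The basement membrane zone collagens differed in sign, with Col15a1 at -0.50 (adjusted p 0.308) and Col18a1, which hepatocytes make in quantity, at 0.18 (adjusted p 0.522). Col18a1 was the only collagen of the 13 with a positive value, and its level overlapped between sham (838 to 1129 CPM) and VSG livers (998 to 1224 CPM). Col5a1 passed without VSG replicate 5 (adjusted p 0.0232), while Col15a1 (0.0379) and Col4a2 (0.0495) passed without sham replicate 2. The value for Col5a2 turned positive without sham replicate 1 (0.16, adjusted p 0.829).

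The proportions of the chains that build 1 collagen were also compared in each liver, with no test. The CPM ratio of Col6a3 to Col6a1, its partner in collagen VI, was 1.51, 1.29 and 1.82 in the sham livers and 0.653, 0.716 and 0.578 in the VSG livers. The ratio was lower in every VSG liver than in any sham liver. The ratio of Col6a2 to Col6a1 overlapped, at 0.596 to 0.760 in sham and 0.691 to 0.744 in VSG livers, and Col6a1 and Col6a2 themselves had log2FC values of -0.54 (adjusted p 0.276) and -0.47 (adjusted p 0.418). The ratio of Col1a1 to Col1a2 was 1.16, 0.6995 and 1.07 in sham and 0.751, 0.705 and 0.873 in VSG livers, and these overlapped through sham replicate 2. The ratio of Col4a1 to Col4a2 overlapped as well, at 2.08, 2.03 and 1.77 in sham and 2.86, 1.67 and 2.34 in VSG livers. These ratios are of gene counts and were not adjusted for the length of the chains.

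Fibronectin links matrix fibres to cell surface integrins, and hepatocytes also secrete it into plasma. Fn1 stood at 2311, 2760 and 2606 CPM in the sham livers and at 4780, 4730 and 5586 CPM in the VSG livers. Every VSG liver was far above every sham liver, and within each group the livers were close together. Fn1 rose 1.97-fold (log2FC 0.98, SE 0.21, adjusted p 0.0309). Its call was lost without sham replicate 1 (0.0901), 2 (0.0712) or 3 (0.137) and without VSG replicate 4 (0.0581) or 6 (0.115), while its log2FC stayed between 0.84 and 1.03 in the 12 alternatives. Fn1 alone made up 42.2% to 49.4% of the summed CPM of the 39 genes in sham livers and 62.6% to 72.2% in VSG livers. The sum over all 39 genes was higher in every VSG liver, at 5480, 5585 and 6099 CPM in sham and 6840, 7552 and 7742 CPM in VSG livers. Without Fn1 the sums were 3170, 2825 and 3493 CPM against 2060, 2822 and 2156 CPM, with VSG replicate 5 just below sham replicate 2. Without Fn1 and Col18a1, both taken out because they were the most abundant, the sum over the other 37 genes was 2332, 1696 and 2518 CPM in sham livers and 1062, 1598 and 1054 CPM in VSG livers. That last sum was lower in every VSG liver than in any sham liver.

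Among the other glycoproteins and elastic fibre proteins, 2 of 7 fell, beside 7.87% of all genes. Reln encodes a large secreted glycoprotein known from neuronal migration and used in liver as a stellate cell marker. It was at 138, 153 and 158 CPM in the sham livers and at 39.2, 89.6 and 57.5 CPM in the VSG livers. The sham livers were nearly level with each other, and VSG replicate 5 was the nearest to them. Reln fell 2.41-fold (log2FC -1.27, SE 0.28, adjusted p 0.0328). The call was lost without sham replicate 1 (0.0648), 2 (0.0833) or 3 (0.123) and without VSG replicate 6 (0.116).

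Fbln5 encodes fibulin 5, which helps to assemble elastic fibres. Its level was low, at 12.8, 10.6 and 11.9 CPM in sham and 6.38, 7.99 and 5.01 CPM in VSG livers, and the groups did not overlap. Fbln5 fell 1.82-fold (log2FC -0.86, SE 0.19, adjusted p 0.0328), a call lost without sham replicate 1 (0.0798), 2 (0.0686) or 3 (0.123) and without VSG replicate 4 (0.0735) or 6 (0.0907). Eln, which encodes elastin itself, had a log2FC of -0.68 (SE 0.72, adjusted p 0.530). Fbn1, which encodes the microfibril protein fibrillin 1, was at 0.02 (SE 0.62, adjusted p 0.987). For Fbn1 the VSG livers ranged from 6.92 to 33.5 CPM, with VSG replicate 5 above all 5 other livers. The value of Fbn1 turned negative with limma-voom, with library totals, without a count filter, without sham replicate 2 and without VSG replicate 5, where it was -1.06.

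The remaining 3 glycoproteins did not pass. Sparc, a collagen-binding matricellular protein, was at 134, 79.4 and 147 CPM in sham and 59.5, 76.7 and 55.8 CPM in VSG livers, with no overlap (log2FC -0.91, SE 0.25, adjusted p 0.0539). Sparc passed without sham replicate 2 (adjusted p 0.0276), without VSG replicate 5 (0.0444) and in DESeq2 (0.00644). Ecm1, known as an inhibitor of the activation of latent transforming growth factor beta in liver, had a log2FC of -0.83 (adjusted p 0.142) and passed without VSG replicate 5 (0.0146). Postn, the matricellular protein periostin, had a value of -0.55 (adjusted p 0.270).

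Small leucine-rich proteoglycans bind collagen fibrils and growth factors, and 1 of the 3 fell, beside 7.87% of all genes. Bgn, biglycan, was at 241, 205 and 288 CPM in the sham livers and at 109, 144 and 115 CPM in the VSG livers. Every VSG liver was clearly below every sham liver, again with VSG replicate 5 the highest of its group. Bgn fell 1.996-fold (log2FC -0.997, SE 0.18, adjusted p 0.0191), the lowest adjusted p among the 39 genes. Bgn was also the gene called in the most of the 6 comparisons that left out 1 liver, with its call lost only without sham replicate 3 (0.0856) or VSG replicate 6 (0.0842). Dcn, decorin, did not overlap either, at 313, 279.5 and 333 CPM against 155, 267 and 162 CPM (log2FC -0.66, adjusted p 0.0962), and passed without VSG replicate 5 (0.0128). Lum, lumican, overlapped (log2FC -0.54, adjusted p 0.363).

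Lysyl oxidases oxidise lysines of collagen and elastin so that the chains crosslink, and 1 of the 3 fell, beside 7.87% of all genes. Loxl2 was at 11.8, 6.08 and 13.3 CPM in sham and 4.07, 4.70 and 4.67 CPM in VSG livers. The VSG livers were nearly alike and all below sham replicate 2, the lowest sham liver. Loxl2 fell 2.32-fold (log2FC -1.22, SE 0.29, adjusted p 0.0396), a call that was kept without sham replicate 2 but lost without each of the other 5 livers (adjusted p 0.0573 without VSG replicate 5 to 0.142 without sham replicate 3) and in limma-voom (0.0710). Lox, the founding member of the family, had a log2FC of -0.50 (SE 0.67, adjusted p 0.623), and for Loxl1, known for its role in elastic fibres, it was -0.39 (SE 0.70, adjusted p 0.717). Loxl1 passed without VSG replicate 5 (log2FC -1.73, adjusted p 0.0341), and its value was 0.03 without VSG replicate 4.

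Of the 5 proteases and inhibitors, 0 passed edgeR's test, with 2 at an unadjusted p under 0.05, beside 33.9% of all genes. DESeq2 called 2 and limma-voom 0 of the 5. Mmp14, a membrane-bound collagenase that also activates Mmp2, was the other gene higher in every VSG liver, at 53.7, 38.97 and 48.7 CPM in sham and 91.5, 56.0 and 67.9 CPM in VSG livers (log2FC 0.61, SE 0.21, adjusted p 0.0910). Timp3, an inhibitor that binds to the matrix, was lower in every VSG liver, at 48.5, 75.3 and 75.8 CPM against 29.7, 44.8 and 19.5 CPM (log2FC -1.09, SE 0.32, adjusted p 0.0653). Its exons share 1733 bases with Syn3 on the opposite strand, which held 161 counts beside 7068 for Timp3. Both passed without VSG replicate 5, with adjusted p of 0.0442 for Mmp14 and 0.0212 for Timp3, and both were called by DESeq2 (0.0497 and 0.00884). Mmp2, a gelatinase, had a log2FC of -0.96 with a large error (SE 0.71, adjusted p 0.375), since VSG replicate 5 was at 11.2 CPM and the other VSG livers at 2.35 and 1.91 CPM. Without VSG replicate 5 the value for Mmp2 was -2.26 (adjusted p 0.0274). Timp1 and Timp2 had values of -0.71 (adjusted p 0.369) and -0.23 (adjusted p 0.695), and Timp2 was at 0.03 without VSG replicate 6.

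Neither the growth factor nor the receptors of the list passed in edgeR, with 2 of the 3 at an unadjusted p under 0.05, beside 33.9% of all genes. DESeq2 and limma-voom called 0 of 3. Tgfb1, transforming growth factor beta 1, overlapped widely, at 22.8, 13.4 and 15.2 CPM in sham and 27.0, 13.98 and 20.4 CPM in VSG livers (log2FC 0.25, SE 0.29, adjusted p 0.566), and its value was -0.000531 without VSG replicate 4. For the platelet-derived growth factor receptors the log2FC was -0.55 for Pdgfra (SE 0.20, adjusted p 0.109) and -0.79 for Pdgfrb (SE 0.29, adjusted p 0.112). Pdgfrb, the receptor that marks stellate cells and pericytes, passed without sham replicate 2 (-1.05, adjusted p 0.0480).

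All 4 contractile and stellate cell genes were lower in every VSG liver than in any sham liver, beside 19.8% of all genes, and 1 of the 4 fell, beside 7.87% of all genes. Tagln, which encodes the actin-binding protein transgelin of smooth muscle and activated stellate cells, was at 9.42, 8.45 and 7.67 CPM in sham and 3.89, 5.001 and 3.20 CPM in VSG livers. It fell 2.11-fold (log2FC -1.08, SE 0.20, adjusted p 0.0216), a call lost without sham replicate 1 (0.0572), 2 (0.0603) or 3 (0.0842) and without VSG replicate 4 (0.0526) or 6 (0.0752). Tagln is uncertain as a gene count, because its exons share 1241 bases with Gm48529 and 108 with Pcsk7 on the opposite strand, and these genes held 475 and 3950 counts over the 6 libraries beside 912 for Tagln. The library preparation kept the strand, but the strand setting of the counting was not given in the sources used here.

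Lrat, the retinyl ester enzyme of quiescent stellate cells, was at 47.0, 46.1 and 43.8 CPM in the sham livers and at 12.4, 29.5 and 26.5 CPM in the VSG livers. The sham livers agreed closely and the VSG livers ranged widely, with replicate 4 the lowest. Lrat had a log2FC of -1.001 (SE 0.30, adjusted p 0.0667) and passed without VSG replicate 4 (-0.70, adjusted p 0.0231), without VSG replicate 5 (0.0423) and in DESeq2 (0.0139). Acta2, the smooth muscle actin of activated stellate cells, was low throughout, at 3.47, 5.39 and 3.65 CPM in sham and 2.81, 2.65 and 1.14 CPM in VSG livers (log2FC -0.91, SE 0.37, adjusted p 0.135). Des, the intermediate filament protein desmin, had a value of -0.39 (SE 0.17, adjusted p 0.155).

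**Figure D4:**
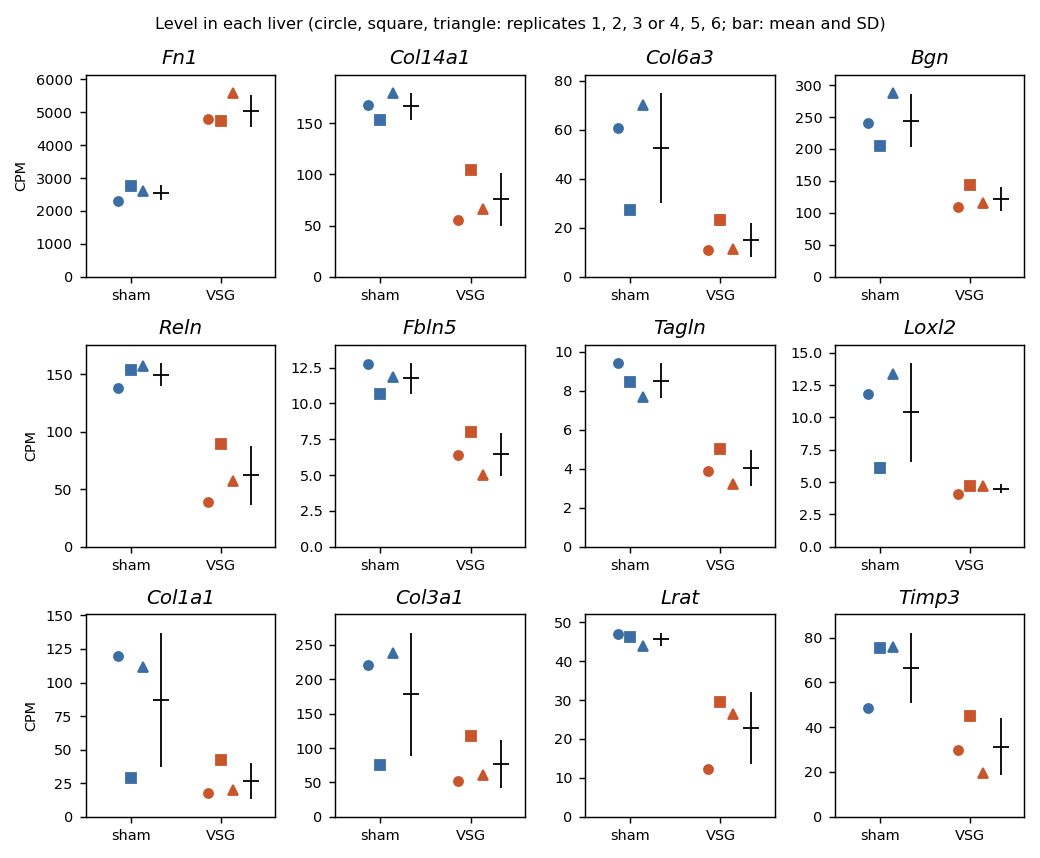
CPM (y axis, from 0) of 12 of the 39 genes in each sham and VSG liver (x axis), with the mean and SD of each group beside the points. The 8 genes with an adjusted p under 0.05 fill the upper 2 rows and do not overlap between groups, while Col1a1 and Col3a1 overlap through sham replicate 2 and VSG replicate 5.

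The 8 genes that passed lie on 7 chromosomes of GRCm38, the build named in the submitters' notes as mm10. Col6a3 spans chr1:90765923-90843971 and Fn1 chr1:71585520-71653200, both on the minus strand. Col14a1 spans chr15:55307750-55520803, Bgn chrX:73483602-73495933 and Loxl2 chr14:69609068-69695834, all on the plus strand. Fbln5 spans chr12:101746565-101819055, Reln chr5:21884454-22344702 and Tagln chr9:45929619-45936058, all on the minus strand. RefSeq promoter sequences on GRCm38.p6 were found for 26 of the 39 genes and for 4 of the 8 that passed, namely Col6a3, Fbln5, Reln and Bgn. The 250 bases before the RefSeq start of each of these 4 genes, all of which fell, are printed 5′ to 3′ on the gene's strand. Matches to GGGCGG (or CCGCCC, the same motif on the opposite strand) and CCAAT are in capitals. Whether the 4 genes are regulated together was not tested.
Col6a3, chr1:90843972-90844221, minus strand: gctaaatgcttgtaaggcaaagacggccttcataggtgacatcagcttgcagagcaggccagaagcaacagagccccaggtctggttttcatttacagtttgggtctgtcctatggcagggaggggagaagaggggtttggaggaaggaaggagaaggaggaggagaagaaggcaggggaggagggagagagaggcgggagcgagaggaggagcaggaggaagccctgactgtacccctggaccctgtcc
Fbln5, chr12:101819120-101819369, minus strand: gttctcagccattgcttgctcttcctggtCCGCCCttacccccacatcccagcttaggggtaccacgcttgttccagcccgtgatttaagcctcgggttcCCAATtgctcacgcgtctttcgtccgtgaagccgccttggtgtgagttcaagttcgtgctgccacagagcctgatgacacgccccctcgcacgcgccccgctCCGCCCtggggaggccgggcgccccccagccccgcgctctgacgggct
Reln, chr5:22344706-22344955, minus strand: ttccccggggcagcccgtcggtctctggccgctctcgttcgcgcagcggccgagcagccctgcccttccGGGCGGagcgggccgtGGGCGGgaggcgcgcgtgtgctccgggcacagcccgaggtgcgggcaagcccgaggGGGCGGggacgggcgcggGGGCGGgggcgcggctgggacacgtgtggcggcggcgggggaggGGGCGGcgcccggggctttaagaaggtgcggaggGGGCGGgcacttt
Bgn, chrX:73483351-73483600, plus strand: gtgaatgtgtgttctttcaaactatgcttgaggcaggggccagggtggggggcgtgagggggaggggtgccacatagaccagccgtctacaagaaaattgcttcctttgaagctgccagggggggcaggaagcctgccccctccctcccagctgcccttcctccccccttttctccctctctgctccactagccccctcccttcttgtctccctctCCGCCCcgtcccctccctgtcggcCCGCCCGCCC
The motifs searched on both strands were GGGCGG, which Sp family factors bind, CCAAT and TATAAA, and they were found in 32.7%, 33.8% and 12.4% of all 32851 RefSeq windows of this length. Reln had 6 matches to GGGCGG, all on its own strand, in a window of 80.0% GC with 37 CG dinucleotides. Bgn had 3 on the opposite strand, 2 of them overlapping each other, in a window of 64.4% GC with 7 CG dinucleotides. Fbln5 had 2 on the opposite strand and 1 CCAAT, in a window of 65.2% GC with 21 CG dinucleotides, and its RefSeq start lies 64 bases from the GENCODE start. Col6a3 had none of the 3 motifs, at 57.2% GC with 3 CG dinucleotides. The median window had 52.4% GC and 6 CG dinucleotides. Of the 26 genes with a sequence, 17 held GGGCGG on either strand in at least 1 of their RefSeq windows. This count is per gene over any of its windows, so it cannot be set against the 32.7%, which is per window.

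On the scale of FPKM, which divides CPM by gene length in kilobases and so allows levels of different genes to be compared, Fn1 was the most abundant of the 39 transcripts in both groups, at 219 ± 19.5 in sham and 431 ± 41.1 in VSG livers (SD, n = 3). Col18a1 followed, at 140 ± 20.8 and 158 ± 16.1 FPKM. Dcn, Ecm1, Bgn and Sparc held ranks 3 to 6 in both groups, at 52.8, 44.6, 40.1 and 31.7 FPKM in sham and 33.4, 25.1, 20.1 and 16.9 FPKM in VSG livers. By group means, Col1a1 went from rank 10 to rank 17 and Col6a3 from 21 to 32, while Mmp14 went from rank 15 to rank 7. Col1a1 and Mmp14 did not pass the test. Col1a1 was at 13.2 ± 7.64 FPKM in sham and 4.05 ± 2.03 FPKM in VSG livers, and Mmp14 at 7.91 ± 1.26 and 12.1 ± 3.03 FPKM. Lox was the least abundant in sham livers, at 0.457 FPKM.

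The wider set of matrix genes was examined through 8 lists of pathway genes outside the 39, with 149 genes in the table and 134 tested. Of these, 10 rose (7.46%, beside 6.79% of all genes) and 17 fell (12.7%, beside 7.87%), with a median log2FC of -0.32. The counts of each list stand beside the same 6.79% and 7.87% of all genes. Of the 27 that passed, 24 lost the call both without VSG replicate 6 and when sham replicate 3 was left out, and 1, Adamts1, kept it in all 6 comparisons without 1 liver.

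Of 15 genes for laminins and related basement membrane proteins, 4 fell and 0 rose by edgeR, with a median of -0.54 (0 were higher at an unadjusted p under 0.05 or by DESeq2 or limma-voom). Lamb3 (log2FC -1.74, adjusted p 0.0264), Lama2 (-1.54, adjusted p 0.0458), Lamb1 (-1.06, adjusted p 0.0286) and Lamc1 (-0.66, adjusted p 0.0421) encode chains of the laminin trimers that anchor cells to the basement membrane. Each of these 4 lost the call when either VSG replicate 6 or sham replicate 3 was left out, with adjusted p up to 0.104, 0.159, 0.118 and 0.151 over the 6 comparisons. Among 14 other collagens, 3 rose and 1 fell. Of the 3 that rose, 1 had counts of 5, 7 and 3 in the sham livers and passed the count filter only through the VSG livers. Col6a6, a collagen VI chain outside the list of 39, rose from 1.26, 0.914 and 0.646 CPM in sham to 7.87, 7.05 and 4.05 CPM in VSG livers (log2FC 2.75, adjusted p 0.00993), while the Col6a3 chain fell. Col6a6 kept its call without each liver except sham replicate 3 (0.0538). Col4a3 rose (3.49, adjusted p 0.0434) on VSG replicates 4 and 6, at 15.5 and 16.2 CPM, while VSG replicate 5 was at 1.45 CPM, near the sham livers at 0.548 to 1.37 CPM, and it kept the call only without VSG replicate 5. Col27a1, a fibrillar collagen, fell (-1.87, adjusted p 0.0359), with adjusted p up to 0.131 without 1 liver.

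Of 22 genes of collagen folding and processing, 2 rose and 1 fell. Pcolce2, an enhancer of procollagen cleavage, rose (log2FC 1.64, adjusted p 0.0291), and Ppib, a prolyl isomerase of the endoplasmic reticulum, rose slightly (0.44, adjusted p 0.0347). Adamts2, the protease that removes the amino-terminal propeptide of fibrillar procollagens, fell (-1.09, adjusted p 0.0327). Ppib lost its call in each comparison without 1 liver, with adjusted p of 0.0548 to 0.128, and Pcolce2 and Adamts2 lost theirs in 4 of 6, with adjusted p up to 0.124 and 0.127.

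Of 16 other matrix proteases and inhibitors, 2 rose and 3 fell. Mmp8 and Mmp9, proteases that neutrophils carry in their granules, had the largest differences, with Mmp8 at 0.137 to 0.48 CPM in sham and 38.6, 3.98 and 15.9 CPM in VSG replicates 4, 5 and 6 (log2FC 5.71, adjusted p 0.0170) and Mmp9 at 0.494 to 1.14 CPM against 45.2, 7.52 and 18.2 CPM (4.81, adjusted p 0.0148). Both genes had the same order of the 3 VSG livers as the summed neutrophil markers, and limma-voom called neither. With counts of 13, 3 and 12 in the sham livers, Mmp8 passed the count filter only through the VSG livers, where it was high. Mmp13, the interstitial collagenase of rodents, fell from 5.72, 4.43 and 5.43 CPM to 0.181, 0.94 and 0 CPM (-3.74, adjusted p 0.0319). With counts of 4, 22 and 0 in the VSG livers, Mmp13 passed the count filter only through the sham livers, and its log2FC ran from -5.76 to -3.19 in the 6 comparisons without 1 liver. Mmp15 fell (-1.18, adjusted p 0.0337). Adamts1, a protease of proteoglycans and the fifth of the list by size, is named because it was seen to keep its call without each liver, and it fell from 24.8, 25.4 and 24.2 CPM to 12.6, 12.1 and 11.4 CPM (-1.04, SE 0.09, adjusted p 0.00389). Mmp13 kept its call only without VSG replicate 5, Mmp15 only without VSG replicate 4 or 5, Mmp8 in 3 and Mmp9 in 4 of the 6 comparisons.

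Of 25 genes of transforming growth factor beta signalling, 1 rose and 1 fell. Tgfbr2, the type II receptor, fell from 75.3, 59.7 and 86.0 CPM to 49.2, 38.0 and 38.5 CPM (log2FC -0.81, adjusted p 0.0276). Skil, a nuclear repressor of Smad proteins, rose from 28.4, 31.5 and 25.1 CPM to 69.9, 40.5 and 43.6 CPM (0.86, adjusted p 0.0468). Neither overlapped between groups, and without 1 liver Tgfbr2 kept its call in 3 and Skil in 2 of 6 comparisons, with adjusted p up to 0.109 and 0.168. Of the 4 genes for PDGF ligands, 0 passed edgeR's test and 1 had an unadjusted p under 0.05, beside 33.9% of all genes. DESeq2 and limma-voom called 0 of the 4. Of 13 integrin subunits, 2 fell, Itga8 (-1.35, adjusted p 0.0333), whose product pairs with integrin beta 1 on stellate cells and smooth muscle, and Itgb5 (-0.61, adjusted p 0.0165), with adjusted p up to 0.128 and 0.0818 without 1 liver.

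Of 26 other proteoglycans and glycoproteins, 2 rose and 5 fell. Tnc, tenascin C, fell from 10.0, 6.94 and 9.80 CPM to 2.40, 3.16 and 2.62 CPM (log2FC -1.71, adjusted p 0.00836), and Sparcl1, a relative of Sparc, fell from 22.7, 15.7 and 20.3 CPM to 6.15, 7.61 and 4.10 CPM (-1.72, adjusted p 0.0127). Omd, osteomodulin, fell (-1.96, adjusted p 0.0255), and Emilin2, an elastic fibre interface protein, rose (2.16, adjusted p 0.0350). Vtn, vitronectin, a plasma glycoprotein that hepatocytes secrete, is named after its values were seen, as another abundant plasma glycoprotein beside Fn1. Vtn was at 1342, 1573 and 1285 CPM in sham and 2627, 3036 and 2830 CPM in VSG livers (1.02, SE 0.19, adjusted p 0.0214), beside a log2FC of 0.98 for Fn1. Tnc lost its call without sham replicate 3 or VSG replicate 6, Sparcl1 without sham replicate 3, and Omd, Emilin2 and Vtn kept theirs in 2, 1 and 3 of the 6 comparisons, with adjusted p up to 0.106, 0.141 and 0.118.

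Markers of other cell types of the liver were summed in each library, and the markers named are those that passed, chosen after their values were seen. Calls in all these lists stand beside 6.79% of all genes that rose and 7.87% that fell. Counts at an unadjusted p under 0.05 stand beside 33.9%. Groups did not overlap for 39.7% of single genes, a share not worked out for sums of markers. A marker low in 1 group could pass the count filter through the other group alone. The 19 markers of quiescent stellate cells outside the 39 genes, of which 18 were tested, summed to 429, 420.3 and 451 CPM in the sham livers and to 307, 321 and 328 CPM in the VSG livers, with no overlap. Of the 18, 7 fell (Hand2, Cygb, Colec11, Hgf, Bmp5, Adamtsl2 and Nes), which is 38.9% beside 7.87% of all genes, and 0 rose by edgeR. At an unadjusted p under 0.05, 1 was higher, and 0 were higher by DESeq2 or limma-voom. The median log2FC was -0.72. Without sham replicate 3 none of these 7 passed (adjusted p up to 0.163 over the 6 comparisons without 1 liver), and Colec11 kept its call in the other 5 comparisons, Hgf, Bmp5 and Adamtsl2 in 2, and Hand2, Cygb and Nes only without VSG replicate 5. In this sum VSG replicate 5 lay between the other VSG livers. The 7 stellate cell markers among the 39 genes summed to 630 to 689 CPM in sham and to 266 to 512 CPM in VSG livers. Portal fibroblast markers overlapped, at 95.8 to 149 CPM in sham and 107 to 122 CPM in VSG livers, with 1 of 9 (Pi16) risen, a call lost only without sham replicate 3 (0.0519). Pi16 passed the count filter only with the VSG livers, where it was high. Smooth muscle markers did not overlap, at 181 to 225 CPM in sham against 147 to 161 CPM in VSG livers, with 2 of 9 (Lmod1 and Tpm2) fallen. Lmod1 passed the count filter only through the sham livers, where it was high. Lmod1 lost its call without any 1 liver (adjusted p 0.0547 to 0.112), and Tpm2 kept its call in 3 of the 6 comparisons. Mesothelial markers were at 5.66 to 13.5 CPM in all livers, with 0 of 5 called by edgeR, DESeq2 or limma-voom and 0 at an unadjusted p under 0.05. The part of these cell types in the values of the matrix genes was not tested.

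Sinusoidal endothelial markers overlapped, at 537 to 649 CPM in sham and 501 to 634 CPM in VSG livers, with 1 of 12 (Plvap) fallen, a call kept without each liver, and a median log2FC of -0.005. Neutrophil markers were the most different, with all 11 risen by edgeR (11 by DESeq2 and 4 by limma-voom) and sums of 14.9, 2.70 and 5.24 CPM in sham against 1838, 150 and 849 CPM in VSG replicates 4, 5 and 6. With a sum of 2.70 CPM in sham replicate 2, some of the 11 passed the count filter only through the VSG livers, where they were high. The count of 11 is therefore not independent of that filter. Kupffer cell markers summed to 936, 467 and 685 CPM in sham and to 2536, 902 and 1638 CPM in VSG livers. Of the 10, 4 rose (Clec4f, Timd4, Vsig4 and Marco), beside 6.79% of all genes. Clec4f and Vsig4 kept the call in 2 and Timd4 and Marco in 3 of the 6 comparisons without 1 liver, with adjusted p up to 0.152. Of the 11 neutrophil markers, Prtn3 kept its call in all 6 and the others in 2 or 3. VSG replicate 5, the highest VSG liver for 31 of the 39 genes, thus had the lowest neutrophil and Kupffer cell sums of its group, and sham replicate 2, the lowest sham liver for 31 of the 39 genes, had the lowest of both in the sham group. Markers of lipid-associated macrophages overlapped, at 157 to 660 CPM in sham and 265 to 489 CPM in VSG livers, with 0 of 7 called by edgeR, 1 at an unadjusted p under 0.05, 1 called by DESeq2 and 0 by limma-voom. Cholangiocyte markers also overlapped, at 8.68 to 27.9 CPM in sham and 21.9 to 51.0 CPM in VSG livers, with 1 of 5 (Sox9) risen, a call kept in 2 of the 6 comparisons without 1 liver. The other 4 had negative log2FC values, and the median of the 5 was -0.84. Hepatocyte markers summed to 78575, 124940 and 83261 CPM in sham replicates 1, 2 and 3 and to 62033, 97620 and 96254 CPM in VSG replicates 4, 5 and 6, highest in sham replicate 2, with 0 of 10 called by edgeR, 2 at an unadjusted p under 0.05, 2 called by DESeq2 and 0 by limma-voom, and adipocyte markers were nearly absent, at 3.06 CPM at most with Lep at 0 in every library. Whether these cells bear on the matrix genes was not tested.

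**Figure D5:**
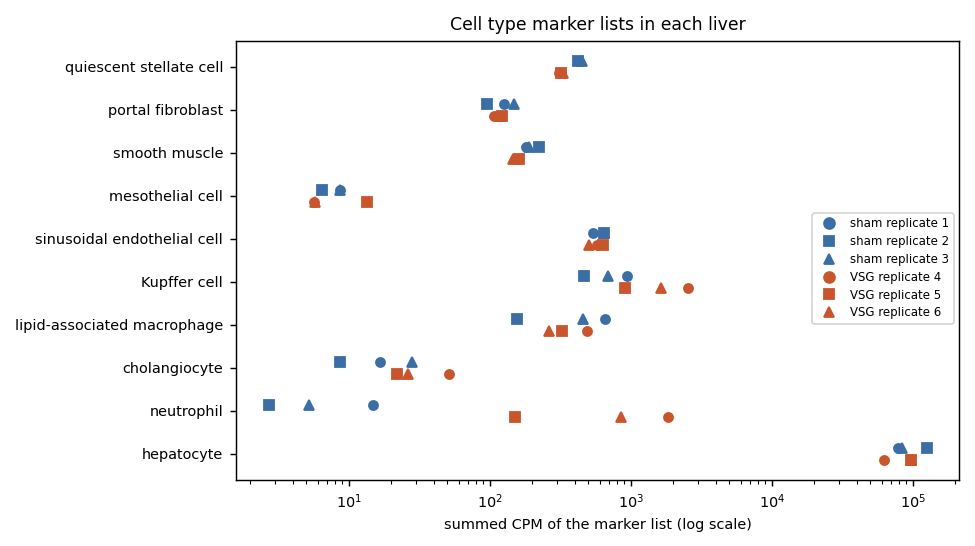
Summed CPM (x axis, log scale) of each cell type marker list (y axis) in each liver. Sums of the quiescent stellate cell list lie at 420.3 to 451 CPM in sham and 307 to 328 CPM in VSG livers, while those of the neutrophil list lie at 2.70 to 14.9 CPM and 150 to 1838 CPM.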

How the data were processed

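Poly(A) RNA of 3 sham and 3 VSG mouse livers was sequenced as strand-specific libraries. Per the labels and the study's methods, the authors checked reads with FastQC 0.10.1, aligned them to mm10 with STAR 2.6.0 and counted them per gene with featureCounts, given as 2.0.3 in the submitters' processing notes and as a different version in the study's methods. The annotation release, the strand setting and the treatment of multiply mapped reads were not given in the sources used here. The deposited table holds raw counts for 55385 genes with gene lengths.

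Of the gene identifiers, 55144 were matched to GENCODE M21 and 241 were not. Members and gene lists were chosen with earlier results of these data known. Library totals were 22804397 to 24191778 counts, and 3 counts, the upper limit that a count of 0 allows, correspond to 0.111 to 0.143 CPM after TMM scaling (counting error only). No pair of libraries of 1 group agreed within sampling noise, so none was treated as deposited more than once.

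Genes were kept by filterByExpr in edgeR 4.0.16 (R 4.3.3) with a minimum count of 10 and a minimum total of 15, which left 14454, scaled by TMM (factors 0.897 to 1.15), and tested with glmQLFit and glmQLFTest on group alone. SE is the absolute log2 fold change over the square root of F. FPKM used the deposited lengths, and log2 CPM used a prior count of 2. Genes of the pathway lists are named where they passed with a mean of at least 1 CPM, at most the 4 with the largest change per list. Each library came from 1 animal, per the study's methods. Alternatives were DESeq2 1.42.0, limma-voom (limma 3.58.1), RLE size factors, library totals, no count filter, at least 10 counts in every library, and leaving out each of the 6 libraries.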

Additional observations from a re-analysis of the deposited data

How the results depend on the processing

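Over the 39 genes and 12 alternatives there were 468 values, of which 392 kept their direction and their side of the threshold, 36 lost a call, 31 gained one and 9 changed sign. Counts of calls moved with the tool, the filter and single livers. DESeq2 called 3288 genes in all (1516 higher, 1772 lower), 17 of the 39 (2 higher, 15 lower) and 47 pathway genes (18 higher, 29 lower), and all 8 genes called by edgeR were among the 17. With library totals 486 genes rose in all, with limma-voom 5 pathway genes rose, and with no count filter 11 of the 39 fell. Leaving out 1 library moved the genes called in all from 159 to 2732 (48 to 1310 higher, 111 to 1422 lower), those of the 39 from 0 to 17 (0 to 2 higher, 0 to 15 lower), the pathway genes from 1 to 44 (0 to 16 higher, 1 to 28 lower) and the median log2 fold change of the 39 from -1.07 to -0.57. The low counts came without sham replicate 3 or VSG replicate 6, the high ones without VSG replicate 5, and the cause was not tested. The log2 fold change changed sign for 5 genes, none of which passed in the full comparison. Fbn1 was at -0.26 with limma-voom, -0.13 with library totals, -0.0177 with no count filter and -1.06 (VSG replicate 5) to 0.38 (VSG replicate 6) without 1 library, with -0.26 without sham replicate 2. Without 1 library, Col5a2 ran from -0.51 to 0.16, Loxl1 from -1.73 to 0.0251, Tgfb1 from -0.000531 to 0.50 and Timp2 from -0.78 to 0.0284, and the signs turned without sham replicate 1 (Col5a2), VSG replicate 4 (Loxl1 and Tgfb1) and VSG replicate 6 (Timp2). No paired analysis was possible because the sham livers are numbered 1 to 3 and the VSG livers 4 to 6, and the groups share no number. Relative counting error is larger for genes with few counts, such as Lox with 276 over the 6 libraries, than for the 8 called genes. The part of depth in the errors of the fit was not tested.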
